A study of Mus musculus with 6 samples.

Results

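Genes of the actin cytoskeleton and targets of serum response factor (SRF) were examined in mouse embryonic stem cells that carried an EWS-OCT4 fusion. The members were a list of 46 gene symbols, covering actins, tropomyosins, myosin II chains, actin-binding proteins, SRF and its cofactors. They were taken by symbol from the deposited count files. Of these, 45 had a row among the 23238 symbols of the files. The symbol Caldl had none, and caldesmon, with the symbol Cald1, is described among the other SRF targets.

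There were 6 libraries, each a count of RNA tags from transcript 3′ ends, 3 from each of a pair of stable lines (the labels name the cells Niwa) on a 129/Ola background. The EWS-OCT4 line expressed EWS-OCT4A-GFP, which joins the Ewing sarcoma protein EWS to isoform A of the transcription factor OCT-4. The control line expressed EGFP. Both were grown in stem cell medium with the cytokine LIF and received doxycycline at 1 µg/ml, given per the labels to lower endogenous OCT-4, so this treatment was shared by both groups. The endogenous OCT-4 level was not checked here. No label gives the duration of treatment, the promoter of the transgenes, or whether a line was 1 clone. The design asks how expression differed between cells with and without the fusion under this treatment, and "rose" and "fell" are used below of the EWS-OCT4 line relative to the EGFP line. Without doxycycline-free libraries, which line moved cannot be told. Separate cultures are not stated for the libraries of a line, so p-values reflect only how these samples spread, and that spread may be technical. As the lines are the only groups, effects of the fusion and other differences between the lines cannot be told apart.

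Actin exists in cells as monomers and as filaments that monomers join and leave. Cofilin severs filaments, profilin and the β-thymosins bind monomers, tropomyosins lie along filaments, and myosin II pulls on them. SRF binds DNA at a sequence called the CArG box and, with cofactors of the myocardin-related family (MRTF-A and MRTF-B, encoded by Mkl1 and Mkl2), drives many genes of actin and its partners. Actin monomers hold the MRTFs inactive, so assembly of filaments is known to raise SRF activity. OCT-4 is known to keep embryonic stem cells from turning into trophoblast.

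The libraries held 10978025 to 12281444 counts in the EWS-OCT4 line and 13239383 to 14935887 in the EGFP line, so that 1 count stood for 0.0670 to 0.0911 CPM. All levels below are such CPM, a tag count relative to library size, with the library size corrected by TMM. The ribosomal RNA precursor Rn45s took 7.36% to 10.5% of counts in the EWS-OCT4 libraries and 5.85% to 6.44% in the EGFP libraries. In both lines, library 3 differed most from the other libraries (chi-square per degree of freedom of 23.7 to 32.3, against 3.96 and 4.21 between libraries 1 and 2). The labelled cell type was checked with markers. All 7 embryonic stem cell markers were higher in the EWS-OCT4 line, with a summed level of 3485 to 3738 CPM there and 103 to 136 CPM in the EGFP libraries, and the most changed were Fgf4 and Esrrb. Sox2 averaged 1334 CPM in the EWS-OCT4 line and 7.02 CPM in the EGFP line. All 11 trophoblast markers were lower in the EWS-OCT4 line, at a summed 254 to 285 CPM, against 5112 to 5889 CPM in the EGFP libraries. The most changed were Plac1, which was at 0 in the EWS-OCT4 line, and Gata3. The EGFP libraries thus carried little of the markers of their labelled cell type.

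Most of these genes were lower in the EWS-OCT4 line. Together they took 1.04, 1.05 and 1.05% of counts in the EWS-OCT4 libraries, against 2.45, 2.42 and 2.23% of counts in the EGFP libraries, a mean share 0.442 times that of the EGFP line, with no overlap between the lines. In either direction 36 of the 43 tested members passed, where 67.4% of all tested genes did. Of 43 members tested, 34 fell (79.1%, where 34.1% of all tested genes fell) and 2 rose (4.65%, where 33.3% of all tested genes rose). The remaining 7 did not pass the test, which was the edgeR quasi-likelihood test with a threshold of 0.05 on p adjusted over all 13467 tested genes. The median log2 fold change of the tested members was -1.22, and that of all tested genes was 0.00. A fall of at least 2-fold was found in 24 members (55.8%, against 23.6% of all tested genes), and a fall of at least 8-fold in 9 (20.9%, against 7.16%). The other 2 members with a row, Actc1 and Actg2, were too low to be tested. In RNA from many cells, fewer cells of a type and less RNA per cell cannot be told apart, and the markers of stem cells and trophoblast moved with this difference. Their part in it was not tested.

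**Figure D1:**
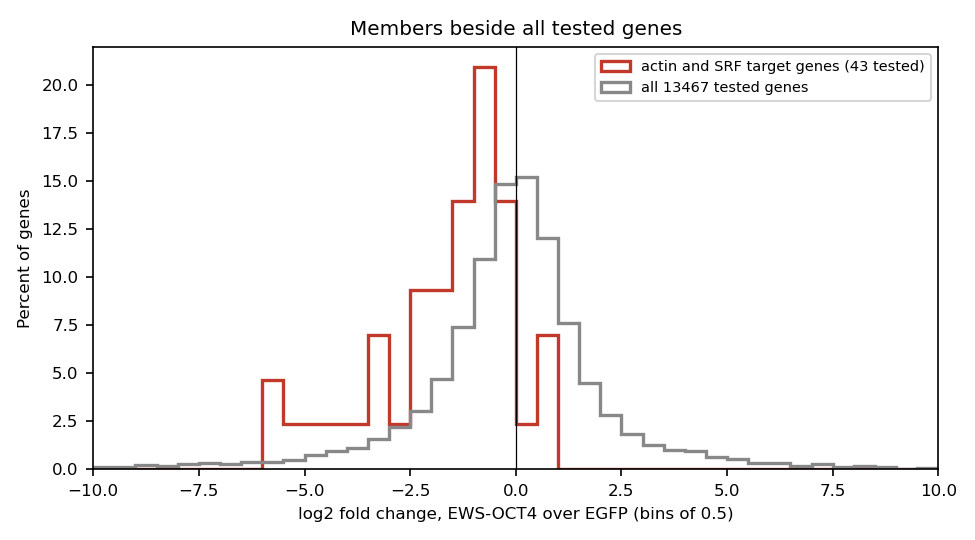
Distribution of log2 fold changes, EWS-OCT4 over EGFP, in bins of 0.5 (horizontal axis), as percent of genes (vertical axis), for the 43 tested members (red) and all 13467 tested genes (grey), with genes beyond the ends of the axis not drawn. The members lie mostly left of 0, with a median of -1.22, and 2 of them rose.

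**Figure D2:**
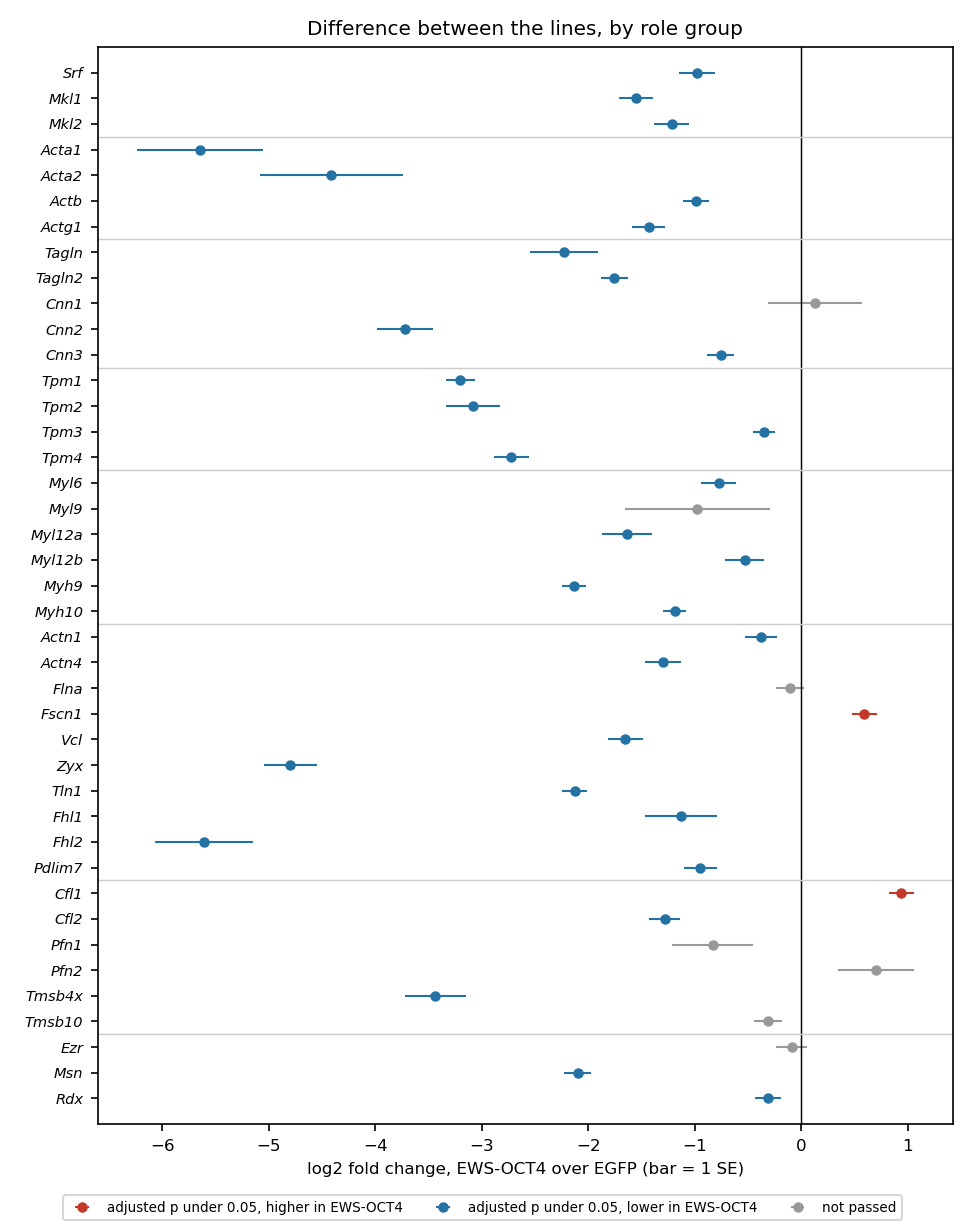
Log2 fold change with 1 SE of 41 tested members, in role groups from SRF at the top to the ERM genes at the bottom. Blue points passed the test and were lower in the EWS-OCT4 line (32 of those drawn), red points passed and were higher (Fscn1 and Cfl1), and grey points did not pass (7 members).

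SRF and both of its cofactors fell, where 34.1% of all tested genes fell. Srf (chromosome 17, 46548329 to 46556175, minus strand, in GENCODE M21 on GRCm38, the assembly of mm10) was at 60.2, 53.0 and 49.8 CPM in the EWS-OCT4 libraries, against 121, 118 and 81.7 CPM in the EGFP libraries. The groups did not overlap, and the difference was 1.97-fold (log2 fold change -0.98, SE 0.17, adjusted p = 5.8e-04, from edgeR). Mkl1 was at 14.8, 15.1 and 13.4 CPM in the EWS-OCT4 libraries, against 43.1, 45.9 and 37.7 CPM in the EGFP libraries, a 2.93-fold lower level (log2 fold change -1.55, SE 0.16, adjusted p = 1.3e-05). Mkl2 was at 14.7, 16.7 and 19.2 CPM in the EWS-OCT4 libraries, against 40.3, 41.8 and 35.7 CPM in the EGFP libraries (log2 fold change -1.22, SE 0.16, adjusted p = 9.7e-05). For all 3 genes every EWS-OCT4 library lay below every EGFP library, as was the case for 36.7% of all tested genes.

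The promoters of several members hold the sequence that SRF binds. A window of 250 bases before to 50 bases after each annotated start was read from RefSeq (GRCm38.p6) for 42 members, Mkl1 and Mkl2 under their newer symbols. No window was given for Actb, Actg2, Tagln and Caldl. A full CArG box was found in 10 of the 42 (23.8%), while 1.81% of 27025 genes with such a window hold one. The members were listed as SRF targets, so this share describes the list and is not a result of the comparison. The box reads the same on both strands, so a search of 1 strand covers both. All members printed below fell, and the boxes of Fhl1 (also lower), Myl9 (not passed) and Actc1 (not tested) are not printed. The windows below show the boxes with 25 flanking bases, fewer at the edge of the searched window, for members that results turn on. They run 5′ to 3′ on the strand of the gene, and capitals mark the box.
Srf, chr17:46556190-46556269, minus strand: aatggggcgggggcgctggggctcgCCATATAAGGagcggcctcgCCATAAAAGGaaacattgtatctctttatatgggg
Acta1, chr8:123894814-123894873, minus strand: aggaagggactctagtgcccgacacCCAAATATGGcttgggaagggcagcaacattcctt
Actg1, chr11:120348551-120348610, minus strand: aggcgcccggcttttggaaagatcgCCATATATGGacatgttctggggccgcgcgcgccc
Cnn2, chr10:79988519-79988578, plus strand: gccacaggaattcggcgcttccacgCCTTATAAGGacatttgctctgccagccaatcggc
Myl6, chr10:128493025-128493084, minus strand: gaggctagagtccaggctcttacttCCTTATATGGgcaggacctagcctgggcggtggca
Vcl, chr14:20929148-20929205, plus strand: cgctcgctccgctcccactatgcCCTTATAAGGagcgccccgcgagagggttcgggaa
Fhl2, chr1:43196823-43196882, minus strand: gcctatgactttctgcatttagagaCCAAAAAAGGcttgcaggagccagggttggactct
Fhl2 at its other annotated start, chr1:43163958-43164017, minus strand: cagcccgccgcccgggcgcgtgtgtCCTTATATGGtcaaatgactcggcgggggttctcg

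**Figure D3:**
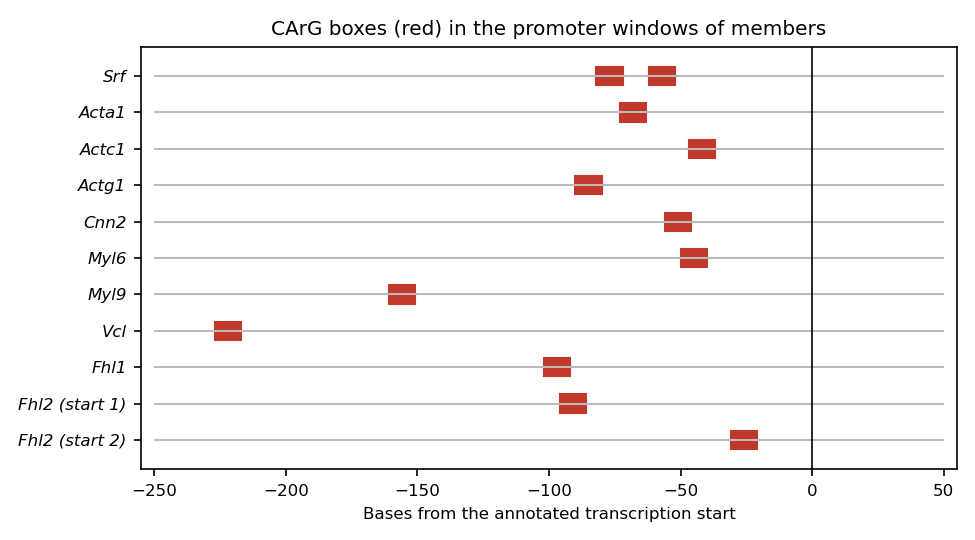
Position of CArG boxes (red, drawn at their length of 10 bases) in the promoter windows of the 10 members that hold one, in bases from the annotated start (horizontal axis). Srf holds 2 boxes, starting 82 and 62 bases before its start, and the box of Vcl lies farthest out, 227 bases before its start.

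Of the 9 tested members with a box, 8 fell and none rose, with a median log2 fold change of -1.43, and Myl9 did not pass the test. Of the 32 tested members whose window held no full box, 24 fell and 2 rose, with a median of -1.20. All 171 tested genes with a box include the 9 tested members with one, and the 10504 tested genes without a box include the other 32. Of the 171, 41.5% fell and 28.7% rose, beside 34.5% and 32.9% of the 10504. These shares are a description, and a window without a box says nothing of boxes elsewhere in the gene.

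Both cytoplasmic actins fell, as did the tested muscle actins (34.1% of all tested genes fell). Actb, cytoplasmic β-actin (chromosome 5, 142903115 to 142906754), was at 3525, 3595 and 4416 CPM in the EWS-OCT4 libraries, against 7913, 7436 and 7551 CPM in the EGFP libraries. Its groups did not overlap and the difference was 1.99-fold (log2 fold change -0.99, SE 0.12, adjusted p = 5.4e-05). Actg1, cytoplasmic γ-actin, was at 558, 537 and 373 CPM in the EWS-OCT4 libraries, against 1294, 1376 and 1293 CPM in the EGFP libraries (log2 fold change -1.43, SE 0.16, adjusted p = 2.2e-05). The muscle actins stood far lower. Acta1, α-actin of skeletal muscle, had 7, 0 and 5 counts in the EWS-OCT4 libraries, against 252, 367 and 163 in the EGFP libraries (log2 fold change -5.65, SE 0.60, adjusted p = 1.8e-05). Acta2, α-actin of smooth muscle, had 21, 2 and 2 counts in the EWS-OCT4 libraries, against 234, 314 and 140 in the EGFP libraries (log2 fold change -4.41, SE 0.67, adjusted p = 2.3e-04). EWS-OCT4 replicate 1 held most of the few EWS-OCT4 counts of both, and without it the log2 fold changes were -6.33 for Acta1 and -6.44 for Acta2. EGFP replicate 3 was the lowest of its line for both genes.

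The last pair of actins was close to the counting limit. Actc1, α-actin of heart muscle, had 1, 0 and 0 counts in the EWS-OCT4 libraries, against 13, 10 and 1 in the EGFP libraries, and was 19.5 times lower after scaling to depth (95% interval 3.17 to 800.2 by an exact method, covering counting error only). Actg2, γ-actin of smooth muscle, had 8, 0 and 0 counts in the EWS-OCT4 libraries, against 1, 1 and 6 in the EGFP libraries. Summed over the 6 genes, actin reached 4086, 4132 and 4789 CPM in the EWS-OCT4 libraries, against 9245, 8860.1 and 8864 CPM in the EGFP libraries. Since the kit reads about 1 tag per transcript at its 3′ end, tags were compared within families without scaling by length. Of actin tags, Actg1 made up 13.7, 13.0 and 7.78% in the EWS-OCT4 libraries, against 13.999, 15.5 and 14.6% in the EGFP libraries, a difference in means of -3.23 percentage points (2-sided exact permutation test p = 0.1, the smallest that 3 against 3 libraries allow). This difference was -1.38 without EWS-OCT4 replicate 3, whose share was the lowest, and -1.44 in the libraries numbered 1 and 2 alone.

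**Figure D4:**
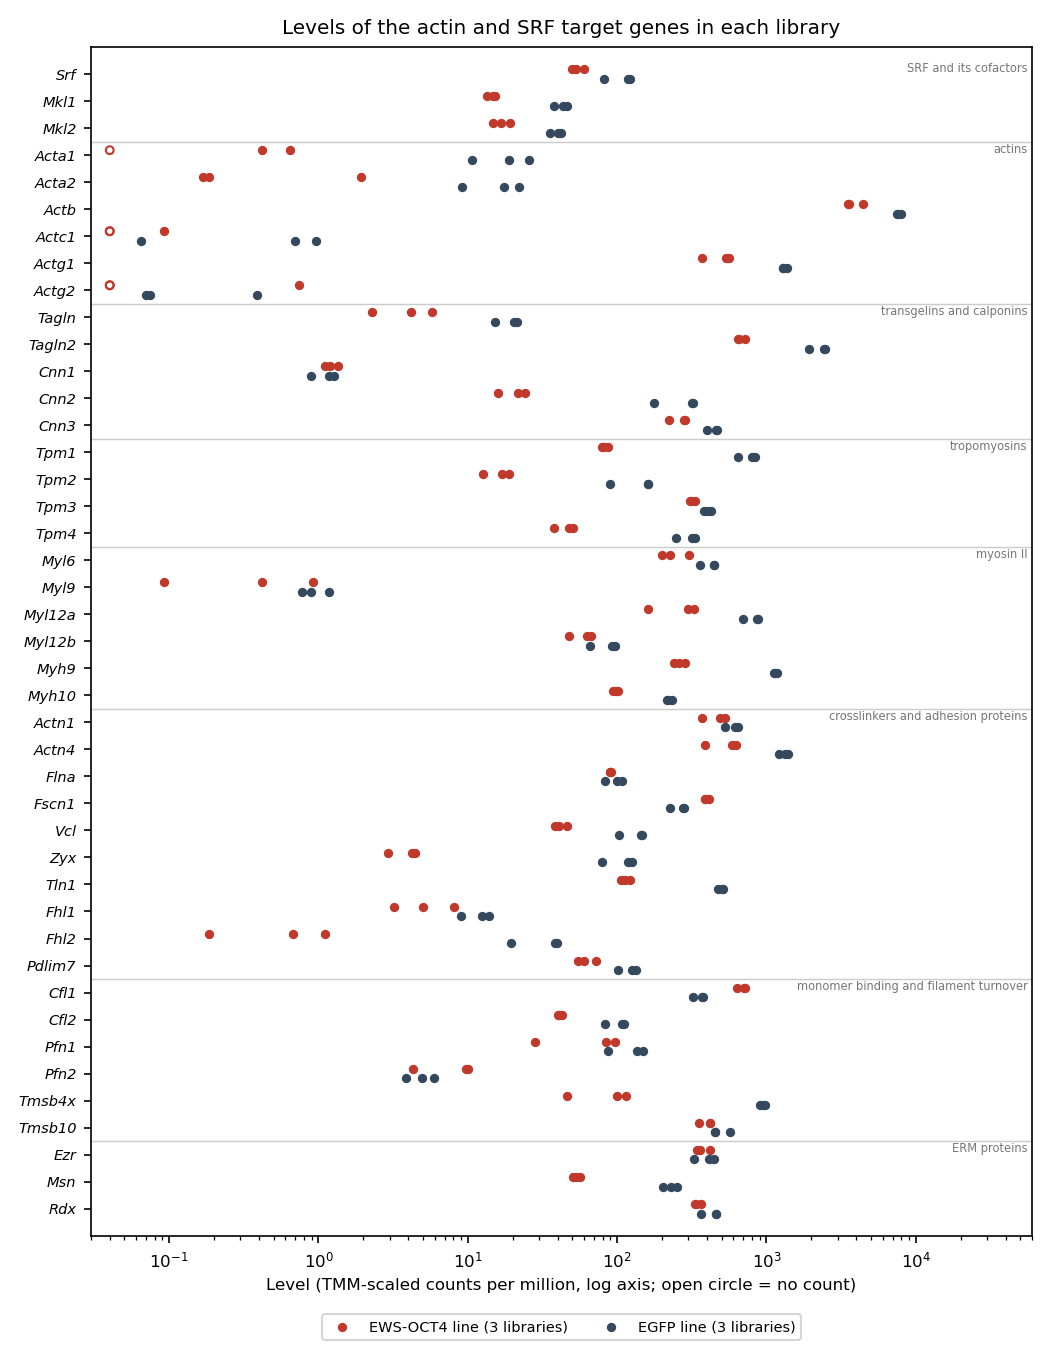
Level of 43 members in TMM-scaled CPM on a log axis, with 1 point per library, EWS-OCT4 in red and EGFP in dark blue, in role groups. Open circles at the left edge stand for libraries without a count (Acta1, Actc1 and Actg2). Actb is the highest member in both lines, and red points lie left of dark blue points for most members.

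Transgelins and calponins bind along actin filaments and are best known from smooth muscle. They fell in 4 of 5 tested members, where 34.1% of all tested genes fell. Cnn2 (calponin 2) was at 24.3, 21.8 and 15.9 CPM in the EWS-OCT4 libraries, against 322, 319 and 177 CPM in the EGFP libraries. Every EWS-OCT4 value lay far below every EGFP value, by 13.2-fold in the fit (log2 fold change -3.72, SE 0.26, adjusted p = 1.1e-06). Tagln (transgelin, or SM22) was at 5.72, 4.16 and 2.27 CPM in the EWS-OCT4 libraries, against 21.3, 20.4 and 15.2 CPM in the EGFP libraries (log2 fold change -2.23, SE 0.32, adjusted p = 1.5e-04). Its relative Tagln2, far more abundant in tags, was at 650.0, 644 and 719.6 CPM in the EWS-OCT4 libraries, against 2415, 2458 and 1921 CPM in the EGFP libraries (log2 fold change -1.75, SE 0.13, adjusted p = 1.6e-06). Cnn3 fell less, with 262 ± 33.6 CPM in the EWS-OCT4 line and 442 ± 36.9 CPM in the EGFP line (SD, n = 3 each, log2 fold change -0.76). Cnn1, the calponin of smooth muscle, did not pass the test, at 1.22 ± 0.119 CPM in the EWS-OCT4 line and 1.11 ± 0.191 CPM in the EGFP line (adjusted p = 0.806).

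Tropomyosins fell in all 4 genes, where 34.1% of all tested genes fell, but by unequal amounts. Tpm1 (chromosome 9, 67022590 to 67049406) was at 79.0, 81.1 and 86.9 CPM in the EWS-OCT4 libraries, against 794, 836 and 642 CPM in the EGFP libraries, a 9.19-fold difference without overlap (log2 fold change -3.20, SE 0.14, adjusted p = 5.8e-08). Tpm2 was at 18.9, 12.7 and 17.0 CPM in the EWS-OCT4 libraries, against 159.8, 162 and 89.6 CPM in the EGFP libraries (log2 fold change -3.08, SE 0.25, adjusted p = 3.3e-06). Tpm4 was at 50.9, 47.9 and 37.5 CPM in the EWS-OCT4 libraries, against 318, 333 and 249 CPM in the EGFP libraries (log2 fold change -2.72, SE 0.17, adjusted p = 4.5e-07). In these 3 genes EGFP replicate 3 was the lowest of its line but stayed above all EWS-OCT4 libraries. Tpm3 was lower by a log2 fold change of only -0.35, at 313, 307 and 331 CPM in the EWS-OCT4 libraries, against 425, 406 and 382 CPM in the EGFP libraries (SE 0.11, adjusted p = 0.0141). That call was lost without EGFP replicate 1, EWS-OCT4 replicate 1 or EWS-OCT4 replicate 2, where the adjusted p reached 0.0595. The total tropomyosin level was 462, 449 and 472 CPM in the EWS-OCT4 libraries, against 1697, 1736 and 1362 CPM in the EGFP libraries. Tpm3 made up most of it in the EWS-OCT4 line, with 67.7, 68.4 and 70.0% in the EWS-OCT4 libraries, against 25.04, 23.4 and 28.0% in the EGFP libraries. The share of Tpm1 was 17.1, 18.1 and 18.4% in the EWS-OCT4 libraries, against 46.8, 48.1 and 47.1% in the EGFP libraries.

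Chains of myosin II, the motor that contracts actin bundles, fell in 5 of 6 genes, where 34.1% of all tested genes fell. The heavy chain gene Myh9 (myosin IIA) was at 241, 258 and 285 CPM in the EWS-OCT4 libraries, against 1177, 1149 and 1124 CPM in the EGFP libraries, lower by 4.40-fold (log2 fold change -2.14, SE 0.11, adjusted p = 1.8e-07). Myh10 (myosin IIB) was at 93.4, 101 and 98.0 CPM in the EWS-OCT4 libraries, against 216, 217 and 233 CPM in the EGFP libraries (log2 fold change -1.19, SE 0.11, adjusted p = 7.3e-06). Replicates were close in both lines and the groups stood apart. Of the heavy chain tags of this pair, Myh10 made up 27.9, 28.1 and 25.6% in the EWS-OCT4 libraries, against 15.5, 15.9 and 17.2% in the EGFP libraries. Among light chains, Myl12a was at 300.1, 325 and 161 CPM in the EWS-OCT4 libraries, against 869, 876 and 694 CPM in the EGFP libraries (log2 fold change -1.63, SE 0.23, adjusted p = 1.5e-04), and EWS-OCT4 replicate 3 was the lowest. The essential light chain Myl6 fell less (log2 fold change -0.77, adjusted p = 0.00199). Myl12b had a log2 fold change of -0.53 (adjusted p = 0.0269), with groups that overlapped, and lost its call without EGFP replicate 1, EGFP replicate 2 or EWS-OCT4 replicate 3 (adjusted p up to 0.109). Myl9, the regulatory chain of smooth muscle, had few tags, at 0.478 ± 0.418 CPM in the EWS-OCT4 line and 0.946 ± 0.204 CPM in the EGFP line, and did not pass (adjusted p = 0.227).

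Genes of filament crosslinking and adhesion fell in 8 of 10 members, where 34.1% of all tested genes fell. Fhl2, a LIM domain protein that also acts as a transcriptional cofactor, was at 1.11, 0.185 and 0.672 CPM in the EWS-OCT4 libraries, against 38.6, 39.5 and 19.5 CPM in the EGFP libraries, and was the member with the second largest fall (log2 fold change -5.61, SE 0.46, adjusted p = 3.2e-06). Zyx (zyxin), found where stress fibres meet adhesions, was at 4.43, 4.25 and 2.94 CPM in the EWS-OCT4 libraries, against 127, 118 and 78.7 CPM in the EGFP libraries. Its highest EWS-OCT4 value was below the lowest EGFP value by a wide margin, and the fit gave a 27.8-fold difference (log2 fold change -4.80, SE 0.25, adjusted p = 1.6e-07). Tln1 (talin), which ties integrins to actin, was at 105, 112 and 122 CPM in the EWS-OCT4 libraries, against 509.7, 504 and 472 CPM in the EGFP libraries (log2 fold change -2.13, SE 0.11, adjusted p = 2.0e-07). Vcl (vinculin), which binds talin, was next in size of fall (log2 fold change -1.65, adjusted p = 1.2e-05).

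The remaining crosslinkers changed less. Actn4 (α-actinin 4), the LIM domain gene Fhl1 and Pdlim7, which has PDZ and LIM domains, fell with log2 fold changes of -1.30, -1.13 and -0.95 (adjusted p between 8.1e-05 and 0.0132). Actn1 (α-actinin 1) fell least (log2 fold change -0.38, adjusted p = 0.0445). The call for Actn1 was lost without EGFP replicate 1, EGFP replicate 2, EWS-OCT4 replicate 1 or EWS-OCT4 replicate 3 (adjusted p up to 0.154), with Rn45s left out, and when the test was limited to genes averaging 10 CPM or more. Flna (filamin A) did not pass, at 89.8, 90.5 and 89.0 CPM in the EWS-OCT4 libraries, against 107, 100.4 and 82.5 CPM in the EGFP libraries (adjusted p = 0.496). In the libraries numbered 1 and 2 alone it passed, with an adjusted p of 0.0473. Fscn1 (fascin, which bundles the filaments of filopodia) rose, at 387, 386 and 414 CPM in the EWS-OCT4 libraries, against 282, 277 and 228 CPM in the EGFP libraries (log2 fold change 0.59, SE 0.12, adjusted p = 0.00144). No library of Fscn1 overlapped between lines, as was the case in this direction for 36.0% of tested genes.

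Genes of monomer binding and filament turnover moved in both directions. Cfl1, the main cofilin of cells outside muscle, rose and was at 705, 714 and 630.5 CPM in the EWS-OCT4 libraries, against 374, 372 and 321 CPM in the EGFP libraries, a 1.92-fold difference with no overlap (log2 fold change 0.94, SE 0.12, adjusted p = 5.2e-05). Its paralog Cfl2, known from muscle, fell and was at 40.7, 40.5 and 42.8 CPM in the EWS-OCT4 libraries, against 108, 111 and 82.7 CPM in the EGFP libraries (log2 fold change -1.28, SE 0.15, adjusted p = 3.5e-05). Of cofilin tags, Cfl1 made up 94.5, 94.6 and 93.6% in the EWS-OCT4 libraries, against 77.6, 77.0 and 79.5% in the EGFP libraries. Tmsb4x (thymosin β4, chromosome X, 167207093 to 167209315) was at 115, 99.9 and 46.3 CPM in the EWS-OCT4 libraries, against 906, 973 and 941 CPM in the EGFP libraries, a 10.8-fold fall (log2 fold change -3.44, SE 0.29, adjusted p = 3.5e-06). Tmsb10 did not pass, at 415, 421 and 352 CPM in the EWS-OCT4 libraries, against 451, 453 and 572 CPM in the EGFP libraries (adjusted p = 0.0612), although its groups did not overlap. The share of Tmsb4x among tags of the pair was 21.6, 19.2 and 11.6% in the EWS-OCT4 libraries, against 66.8, 68.2 and 62.2% in the EGFP libraries. Profilins did not pass. Pfn1 was at 84.1, 96.1 and 28.0 CPM in the EWS-OCT4 libraries, against 135, 149 and 86.4 CPM in the EGFP libraries (adjusted p = 0.0738), and EWS-OCT4 replicate 3 was far below the other libraries of its line. Pfn2 was at 9.78, 9.97 and 4.28 CPM in the EWS-OCT4 libraries, against 3.88, 5.89 and 4.94 CPM in the EGFP libraries (adjusted p = 0.105). In the libraries numbered 1 and 2 alone both profilins passed, Pfn1 lower and Pfn2 higher.

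The ERM genes encode ezrin, radixin and moesin, which link filaments to the plasma membrane, and they changed unequally. Msn was at 56.5, 53.0 and 50.4 CPM in the EWS-OCT4 libraries, against 229.5, 252 and 204 CPM in the EGFP libraries, a 4.28-fold fall (log2 fold change -2.10, SE 0.13, adjusted p = 4.5e-07). Rdx was at 334, 335 and 364 CPM in the EWS-OCT4 libraries, against 458, 458 and 366 CPM in the EGFP libraries (log2 fold change -0.31, adjusted p = 0.0456). The call for Rdx was lost without EGFP replicate 1, EGFP replicate 2, EWS-OCT4 replicate 1 or EWS-OCT4 replicate 2 (adjusted p up to 0.139), with DESeq2 and with genes of at least 10 CPM. Ezr did not pass, at 341, 359.8 and 416 CPM in the EWS-OCT4 libraries, against 448, 414 and 327 CPM in the EGFP libraries (adjusted p = 0.591), but passed as lower in the libraries numbered 1 and 2 alone (adjusted p = 5.0e-04). Of ERM tags, Msn made up 7.73, 7.08 and 6.07% in the EWS-OCT4 libraries, against 20.2, 22.4 and 22.7% in the EGFP libraries.

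**Figure D5:**
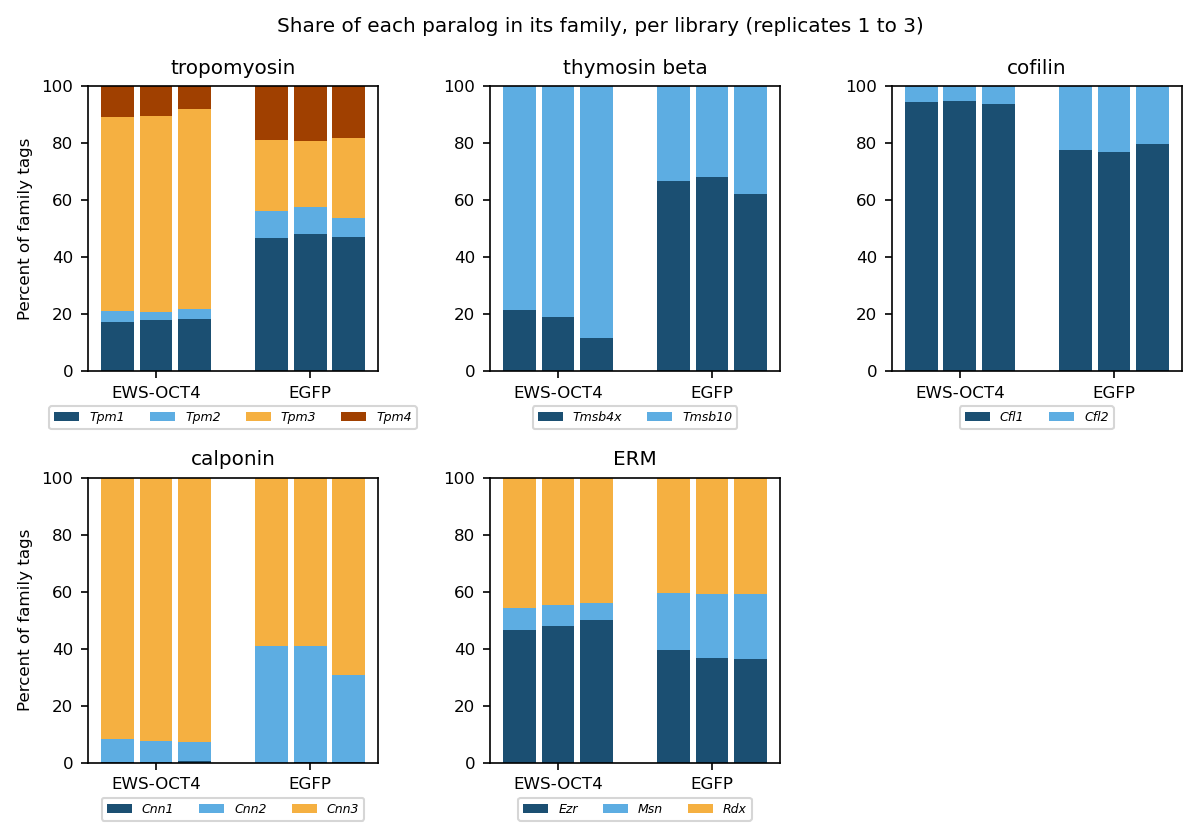
Share of each paralog in the tags of its family (vertical axis, percent) for 5 families, with 1 bar per library, the 3 EWS-OCT4 libraries left of the 3 EGFP libraries. Library 3 stands apart for Cnn2 in the EGFP line (40.7, 40.9 and 30.6%) and for Tmsb4x in the EWS-OCT4 line (21.6, 19.2 and 11.6%). The share of Tpm3, Tmsb10, Cfl1 and Cnn3 is larger in every EWS-OCT4 library than in every EGFP library.

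Within the EGFP line neither the members nor the cell type markers kept a fixed level. Stem cell markers summed to 103, 105 and 136 CPM in the EGFP libraries, and trophoblast markers to 5889, 5791 and 5112 CPM. The trophoblast markers did not move together. In EGFP replicate 3, Krt8 and Krt7 were the lowest of the line, at 1492 and 298 CPM. Cdx2, Eomes and Ascl2 were the highest of the line there, at 37.5, 84.2 and 76.8 CPM. The part of these markers in the levels of the members was not tested. In EGFP replicate 3, 34 of 43 tested members were below both other libraries of the line (79.1%, against 39.4% of all tested genes), with a median log2 difference of -0.32 (0.00 over all tested genes). The genes that led this shift were among those with the largest falls between the lines. Acta2, Acta1, Fhl2, Cnn2 and Tpm2 differed there from the mean of the other EGFP libraries by -1.07, -1.02, -0.98, -0.86 and -0.84 on the log2 scale. The shift did not follow the size of the fall in every member. Tmsb4x, with a log2 fold change of -3.44 between the lines, differed there by 0.0028, and Srf, with -0.98, by -0.55. In EWS-OCT4 replicate 3, 23 of 43 members were the lowest of their line (53.5%, against 37.5% of all tested genes), with a median of -0.12. There Pfn1, Tmsb4x and Pfn2 were lowest relative to the other libraries, by -1.66, -1.20 and -1.12. With the libraries numbered 1 and 2 alone, 37 members fell and 3 rose, and Fscn1 and Cfl1 were among the 3. Of all 13538 genes tested in that setting, 5148 fell and 5092 rose. These were more than in the main fit, where 4591 fell and 4482 rose of 13467.

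Other targets of the MRTF-SRF pair outside the members were mostly lower too. Of 15 tested out of 17, 11 fell, 1 rose and 3 did not pass (34.1% of all tested genes fell and 33.3% rose), with a median log2 fold change of -2.73. Mylk, the kinase that activates myosin II, was at 2.12, 0.185 and 0.336 CPM in the EWS-OCT4 libraries, against 36.3, 37.1 and 22.8 CPM in the EGFP libraries (log2 fold change -5.19, SE 0.55, adjusted p = 2.0e-05, and -6.87 without EWS-OCT4 replicate 1). Csrp1, a LIM protein of stress fibres, was at 31.0, 34.4 and 31.4 CPM in the EWS-OCT4 libraries, against 499, 479 and 326 CPM in the EGFP libraries (log2 fold change -3.75, SE 0.18, adjusted p = 1.1e-07). Cald1 (caldesmon), which binds actin and tropomyosin, averaged 119 CPM in the EWS-OCT4 line and 792 CPM in the EGFP line (log2 fold change -2.73, adjusted p = 6.6e-07). Ctgf, a secreted matrix protein that is also a target of YAP, was the 1 that rose, at 32.3, 27.4 and 11.4 CPM in the EWS-OCT4 libraries, against 14.8, 13.2 and 4.68 CPM in the EGFP libraries (log2 fold change 1.13, SE 0.45, adjusted p = 0.0454). Its groups overlapped, and its call was lost when any library but EGFP replicate 1 and EWS-OCT4 replicate 3 was left out (adjusted p up to 0.161).

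The other branch of SRF works through ternary complex factors and drives immediate early genes. Of 9 tested out of 12 cofactors and targets of this branch, 4 rose, 1 fell and 4 did not pass, with a median of 0.67. With so few genes, 4 of 9 is not far from the 33.3% of all tested genes that rose. Ier2, an immediate early gene, was at 52.5, 48.5 and 40.8 CPM in the EWS-OCT4 libraries, against 2.09, 0.982 and 2.73 CPM in the EGFP libraries (log2 fold change 4.60, SE 0.30, adjusted p = 6.9e-07), and the cofactor Elk3 averaged 16.3 ± 2.90 CPM in the EWS-OCT4 line and 6.78 ± 1.08 CPM in the EGFP line (log2 fold change 1.26, SE 0.23, adjusted p = 7.0e-04). Fos was the 1 that fell (log2 fold change -2.67). Whether the 2 branches differ was not tested.

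Genes that build, cap and anchor filaments moved in both directions, with more falls than rises in each list below. Their counts stand beside 34.1% of all tested genes that fell and 33.3% that rose. The Arp2/3 complex starts branched filaments, and the WAVE complex activates it. A list of 21 genes held those of these complexes and, from outside them, Was, Wasl and Cttn. Of the 21, 13 fell, 3 rose and 5 did not pass, and Was, Wasl and Cttn were among the 13. Arpc5 fell and averaged 55.4 ± 3.70 CPM in the EWS-OCT4 line and 222 ± 13.5 CPM in the EGFP line. Arpc1b also fell (log2 fold change -1.87). Wasf1, a WAVE gene known from neurons, rose and averaged 25.8 ± 6.24 CPM in the EWS-OCT4 line and 1.15 ± 0.169 CPM in the EGFP line. Cyfip2 rose as well (log2 fold change 0.86). Of 12 tested formins, which start unbranched filaments, 7 fell, 3 rose and 2 did not pass. Fhod1 and Fmnl2 fell, with log2 fold changes of -2.54 and -2.51. The 3 that rose did so by similar or larger amounts. Fmnl1 averaged 9.71 CPM in the EWS-OCT4 line and 0.666 CPM in the EGFP line (log2 fold change 3.87), and Fmn2 averaged 14.98 CPM in the EWS-OCT4 line and 1.64 CPM in the EGFP line (log2 fold change 3.18). Fhod3 had a log2 fold change of 2.10.

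Among 21 tested capping, severing and other crosslinking genes, 12 fell, 6 rose and 3 did not pass. The steepest falls were in Lcp1, a plastin known from blood cells, and Gsn, the severing protein gelsolin. Lcp1 was at 0.830, 0 and 0.0840 CPM in the EWS-OCT4 libraries, against 122, 121 and 102 CPM in the EGFP libraries (log2 fold change -8.54, SE 0.46, adjusted p = 2.0e-07), and Gsn at 2.86, 1.02 and 0.504 CPM in the EWS-OCT4 libraries, against 489.8, 492 and 353 CPM in the EGFP libraries (log2 fold change -8.26, SE 0.40, adjusted p = 1.1e-07). Without EWS-OCT4 replicate 1 these log2 fold changes were -11.07 and -9.19. The 6 rises were near the 33.3% of all tested genes that rose. The largest was in Actn3, an α-actinin known from skeletal muscle, which averaged 11.3 CPM in the EWS-OCT4 line and 0.183 CPM in the EGFP line (log2 fold change 5.85, adjusted p = 6.4e-06). Cap2, Vil1 (villin) and Espn (espin) also rose, with few tags in either line and log2 fold changes of 3.89, 2.02 and 1.35. The more abundant Twf1 and Cotl1, monomer and filament binders, rose less, with log2 fold changes of 0.47 and 0.33. Twf1 lost its call without EGFP replicate 1 or EWS-OCT4 replicate 1, and the log2 fold change of Cotl1 did not pass without any 1 of the EGFP libraries or EWS-OCT4 replicate 2 (adjusted p up to 0.0931). Of 19 other focal adhesion genes, 12 fell, 3 rose and 4 did not pass. Lims2 and Lpp, LIM proteins of adhesions, fell, with log2 fold changes of -5.06 and -2.95. Evl and Enah, of the Ena/VASP family, rose, with log2 fold changes of 1.09 and 0.82, while Vasp fell (log2 fold change -1.16). Enah averaged 1006 CPM in the EWS-OCT4 line and 569 CPM in the EGFP line. Tln2, the other talin gene, rose and was at 64.4, 56.7 and 59.2 CPM in the EWS-OCT4 libraries, against 20.2, 20.1 and 16.9 CPM in the EGFP libraries (log2 fold change 1.66, SE 0.15, adjusted p = 5.5e-06). Tln1 fell and Tln2 rose between the same libraries.

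Markers of muscle and connective tissue were looked at beside the muscle-type members. Of 5 smooth muscle markers, 3 were tested, and Lmod1 and Smtn fell while Des rose. Lmod1, Smtn and Myh11 also belong to the list of other MRTF-SRF targets above, so the lists are not independent. Myocd averaged 0.115 CPM in the EWS-OCT4 line and 0.330 CPM in the EGFP line and Myh11 0.901 CPM in the EWS-OCT4 line and 0.294 CPM in the EGFP line, both too low to be tested. The summed level of the 5 was 51.0 to 64.7 CPM in the EWS-OCT4 libraries and 61.1 to 103 CPM in the EGFP libraries. Of 9 heart and skeletal muscle markers, Tnni3 and Ttn rose, Tnnt2 fell and 6 were too low to be tested, with sums of 15.4 to 30.3 CPM in the EWS-OCT4 libraries and 8.50 to 11.2 CPM in the EGFP libraries. In the 8 markers of mesenchyme and fibroblasts, Thy1 and Pdgfrb rose, Pdgfra fell, 3 did not pass and 2 were too low to test. The 8 summed to 25.4 to 33.1 CPM in the EWS-OCT4 libraries and 7.61 to 12.1 CPM in the EGFP libraries. Most of that difference lay in Thy1, which averaged 17.9 CPM in the EWS-OCT4 line and 0.636 CPM in the EGFP line. Of 7 markers of primitive and parietal endoderm, Dab2, Gata6 and Lamb1 fell, Gata4 rose, and Sox17, Sox7 and Foxa2 were too low to test. The 7 summed to 24.3 to 27.2 CPM in the EWS-OCT4 libraries and 189.6 to 221 CPM in the EGFP libraries. Lamb1 and Dab2 made up most of the EGFP sum, averaging 91.3 and 79.5 CPM in that line. Of 4 endothelial markers, Pecam1 and Tek rose, and Kdr and Cdh5 fell, with Cdh5 at 0 in the EWS-OCT4 line. The part of any such cells in the member results was not tested.

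Some tags of members could belong to another gene. In the last 300 bases of the coding transcripts, 38 members had no window of 50 bases in common with a transcript of another gene in GENCODE M21. Tmsb10 shared 39.3% of such windows with Gm9844, Myl12b 31.5% with a second gene of the same name, Myl6 22.7% with copies such as Gm5526, Myl12a 21.2% with Myl12b and others, and Tpm3 15.8% with Tpm3-rs7. Actb shared 6.57% and Cfl1 0.133%. Counts of the first 5 of these are therefore uncertain. For 14 members a gene on the opposite strand overlaps the last 1000 bases, among them Epha1 at Zyx, Pcsk7 at Tagln, Ap3m1 at Vcl and Snx32 at Cfl1. Whether counting used strand is not given in the sources used here, so tags of such pairs cannot be told apart.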

How the data were processed

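RNA was taken up in Trizol and made into Lexogen QuantSeq 3′ libraries, per the labels' protocols. Bowtie2, edgeR and mm10 appear in the submitters' processing notes, without roles. Which counter and annotation were used, and whether strand was, is not given in the sources used here. The authors deposited a file of counts for each library, whole numbers by gene symbol, and their totals show no scaling. Samples were grouped by title. The 35 symbols on more than 1 line (79 lines) were summed.

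Library sizes were corrected with TMM (edgeR 4.0.16, factors 0.971 to 1.03). After filterByExpr, with a minimum count of 10 and a minimum total of 15, 13467 genes entered glmQLFit in its robust form. The lines were compared with its 2-sided F test at a Benjamini-Hochberg adjusted p of 0.05. The SE is the size of the log2 fold change divided by the square root of F. On simulated data for 13224 genes the test recovered 64.0% of 2-fold and 93.8% of 4-fold changes, with 4.94% false calls. Recovery with as many changed genes as found here was not tested. Low counts have exact 95% binomial intervals, for counting error only. DESeq2 1.42.0 and limma 3.58.1 served as alternatives, beside other scaling, filters and thresholds, a replicate block, and libraries left out.

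The members, their role groups and the lists were chosen with earlier results of these data known. Srf, Mkl1, Mkl2 and the actins are given in full, as are up to 3 called members of largest change per direction in other role groups. From lists, up to 2 called genes per direction averaging 10 CPM or more were named. Cald1, Fos, Sox2, Fmnl1, Fmn2, Fhod3, Actn3, Cap2, Vil1, Espn, Enah and Vasp were named after their values were seen. So were Was, Wasl, Cttn and the trophoblast markers Krt8, Krt7, Cdx2, Eomes and Ascl2. The same holds for the muscle, connective tissue, endoderm and endothelial markers below that level. All of these were not refitted under the alternatives. A group of 2 members, which the counts over all members include, and 1 list are not reported here.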

Additional observations from a re-analysis of the deposited data

How the results depend on the processing

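The counts and the median kept their direction under the 16 alternatives that gave them. Members called lower numbered 27 to 37, and the median log2 fold change of all tested members lay between -1.37 and -1.16. Members called higher numbered 1 against a 1.5-fold change, where Fscn1 was not called, and 3 with libraries 1 and 2 alone or without EWS-OCT4 replicate 3, where Pfn2 was added. With 1 library left out at a time, 8122 to 9385 genes, 30 to 34 members lower and 2 to 3 higher passed, and the difference in the Actg1 share of actin tags was -4.32 to -1.38. Of 682 member values under alternatives, 641 kept call and sign, 32 in 8 members lost the call, 8 in 4 members gained it, and 1 reversed: the log2 fold change of Cnn1 was -0.012 without EGFP replicate 1, and -0.012 to 0.22 over the libraries left out. Threshold and 10 CPM alternatives call fewer by construction.

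With a replicate block on the titles' numbers, 8968 genes passed, with 34 members lower and 2 higher (Pfn1 gained and Rdx lost). Correlations of same-numbered libraries' deviations were 0.040, 0.052 and 0.152, so the numbers were not taken as pairs, and not every library correlated best with its own number. Depth limits Actc1, Actg2, Cnn1 and Myl9, each with few counts.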
